A study of Mus musculus with 8 samples.

Results

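The cytosolic ribosomal protein genes encode the proteins that, with the ribosomal RNAs, form the small and large subunits of the ribosome in the cytoplasm. Their members were taken by symbol: Rpl or Rps followed by a number and at most a letter, Rplp0, Rplp1, Rplp2 and Rpsa, leaving out the Rps6k kinases, with at least 10 exonic counts in 4 or more libraries. Of 55471 genes in the exonic count table, 83 symbols matched and 79 reached the minimum: 44 of the large subunit, 32 of the small subunit and the 3 genes of the P stalk, which are counted apart here. No member reached the minimum through the libraries of 1 group alone (0 of 79). Just inside the minimum lay Rpl3l, with 13 to 25 counts per library, and Rpl24, with 46 to 74. Just outside lay Rpl10l, Rpl32l, Rpl39l and Rpl6l, whose highest counts in any library were 0, 9, 2 and 11. Of the 79 members, 78 are annotated as protein coding in GENCODE, and Rps4l is annotated as a transcribed processed pseudogene.

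Nuclear RNA was sequenced from 4 Mock and 4 Pilo samples of male C57BL/6J mice of the genotype CaMKIIalpha-Cre:SUN1-sfGFP, aged 6 to 8 weeks. In these mice a Cre recombinase under the CaMKIIalpha promoter, which is active mainly in excitatory neurons of the forebrain, allows nuclei to be tagged at the envelope by a SUN1 protein fused to green fluorescent protein, so that antibodies can pull them down. All animals had scopolamine methyl nitrate (1 mg/kg), which blocks muscarinic receptors outside the brain; 30 min later the Pilo mice had pilocarpine (340 mg/kg), a muscarinic agonist that starts seizures, and the Mock mice saline. Pilo mice were given 100 min to develop seizures, and only mice whose seizures scored 3 to 5 on the Racine scale were used. Nothing in the sources used here says how many mice went into a sample or that the samples came from separate mice, so every p-value here is set against the differences among these libraries, part of which can be technical. The libraries were made from poly(A) RNA, so the RNA counted was nuclear and polyadenylated. RNA in the cytoplasm, where ribosomal protein mRNAs are translated, was not measured.

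Ribosomal protein genes are expressed in all cells, and most of their proteins enter a subunit in equal amounts. Their mRNAs start with an unbroken stretch of pyrimidines at the 5′ end, the terminal oligopyrimidine or TOP motif, through which the kinase complex mTORC1 controls how well they are translated. Their promoters are short, lack a canonical TATA box in most cases and often hold sites for factors of the ETS family, and many of their introns carry small nucleolar RNAs (snoRNAs), which guide the modification of ribosomal RNA. In neurons, ribosomal proteins are made both in the soma and near synapses, and synaptic activity feeds into mTORC1.

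The stretch of pyrimidines can be read around the annotated start sites. Windows of 30 bases, 15 before and 15 from the start on, are shown for the 5 members with the largest exonic rise and for Rps10 and Rps24, the members with the lowest exonic change besides the scarce Rpl3l, since they hold the ends of the range described below. They were taken from the RefSeq promoter table (GRCm38.p6), 5′ to 3′ on the gene's strand, with the longest run of at least 5 pyrimidines in capitals:
Rps12: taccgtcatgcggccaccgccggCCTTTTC (chr10:23787195-23787224, minus strand)
Rpl4: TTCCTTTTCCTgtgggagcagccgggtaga (chr9:64173372-64173401, plus strand)
Rpl19: tgaccaaacgCCCTCactgcgcatgtgcgc (chr11:98026695-98026724, plus strand)
Rpsa: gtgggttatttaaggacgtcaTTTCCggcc (chr9:120127751-120127780, plus strand)
Rps16: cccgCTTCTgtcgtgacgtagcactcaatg (chr7:28350674-28350703, plus strand)
Rps10: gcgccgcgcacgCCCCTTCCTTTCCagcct (chr17:27635230-27635259, minus strand)
Rps24: cccgcgctggggTCCTTCCTTgcgcgttga (chr14:24490663-24490692, plus strand)
The annotated start need not be the base at which these neurons start transcription. In Rps12 the run of 7 pyrimidines reaches the end of the window, in Rpl4 the run of 11 lies before the annotated start, and in Rps10, whose exonic counts fell, the run was the longest of those shown, at 13 bases. The table held windows for 58 of the 79 members. A C at the annotated start followed by at least 4 pyrimidines was found in 13 of the 58 (22.4%) against 3.01% of all 27025 genes with a window. The letters CTTTC or CTTCC, on the sense strand between 15 bases before and 25 after the start, were found in 25 (43.1%) against 15.2% of all genes. CCGGAAG, the core of an ETS site, was found on either strand within 250 bases before to 50 after the start in 24 (41.4%) against 9.93% of all genes. The median exonic change was 0.21 (log2) in the 13 members with the pyrimidines at the start and 0.27 in the 45 without; it was 0.25 with and 0.28 without CCGGAAG. The intronic medians lay the other way, at 0.49 with and 0.44 without the pyrimidines at the start, and at 0.49 with and 0.39 without CCGGAAG. For CTTTC or CTTCC the medians were 0.21 with and 0.27 without in exons and 0.29 with and 0.48 without in introns. None of these differences was tested.

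Before the results, the libraries were checked against each other. The exonic table held 29356788 to 36161448 counts per library. A further table with separate exonic and intronic counts held 27135364 to 33715773 exonic and 11928054 to 16703475 intronic counts. The columns numbered 2 and 3 go by exchanged names in the 2 tables, in both groups: Mock 2 of the exonic table matched Mock 3 of the other (r = 0.99 across genes, of deviations from the group mean) and not Mock 2 (r = -0.57), and likewise for Pilo (r = -0.61 with the same name). Group values are not touched by this, and each library is named here as its own table names it. All 8 excitatory markers were found, with a summed level of 2514 to 3157 CPM (counts scaled to the size of the library) in Mock and 2750 to 3191 in Pilo, and 5 of the 8 were higher in Pilo by the test below. Inhibitory neuron markers summed to 261 to 319 CPM in Mock and 307 to 414 in Pilo (3 of 7 higher), astrocyte markers to 756 to 1150 and 841 to 1330 (0 of 6 called by edgeR, 1 at an unadjusted p under 0.05, 1 by DESeq2 and 0 by limma-voom), oligodendrocyte markers to 316 to 440 and 372 to 715 (1 of 6 higher, Mbp), and markers of precursors (1 of 4 higher), microglia and endothelium to at most 63.6, 23.1 and 37.9 CPM in any library. Of all genes tested 15.6% rose and 16.2% fell. The log2 changes ran from 0.23 to 0.50 for inhibitory markers, 0.31 to 0.64 for oligodendrocytes and 0.27 to 0.81 for precursors. For endothelium, with 0 calls, they ran from 0.45 to 1.13. For excitatory neurons, astrocytes and microglia they ran from -0.13 to 0.69, -0.05 to 0.68 and -0.07 to 0.36. No marker of these lists was at 0 in all libraries, and the part of these cell types in the results below was not tested. Mitochondrially encoded genes, read as RNA from outside the nucleus, took 0.0297 ± 0.0152% of exonic counts in Mock and 0.0331 ± 0.0190% in Pilo (SD, n = 4 each; exact permutation test, two-sided, p = 0.629); in both groups libraries 3 and 4 lay at 0.0392 to 0.0524% and libraries 1 and 2 at 0.0157 to 0.0179%. The permutation test did not pair libraries by number, so the spread it used includes this split. A difference within pairs was not tested.

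In exons, the ribosomal protein genes were higher after pilocarpine. Of the 79 members, 41 rose and 1 fell at an adjusted p under 0.05 (edgeR's quasi-likelihood test, Benjamini-Hochberg over all 19176 genes tested), while over all genes 15.6% rose and 16.2% fell, 31.8% in all. The median member change was 0.25 on the log2 scale, or 1.19-fold, against 0.00 for all genes, with quartiles at 0.11 and 0.38. Above 0 lay 70 of 79 members, and the range ran from -0.58 for Rps10 to 0.70 for Rps12. Of the large subunit 22 of 44 members rose, with a median of 0.24, and of the small subunit 16 of 32, with a median of 0.25. In bulk nuclei a higher level cannot be told apart from a larger share of nuclei that express the gene. With the replicate number as a block 53 members rose and 2 fell, the additional fall being Rps24. The shares over all genes in the blocked fit are not given here, so these counts have no background beside them. Among genes of like abundance, those with a mean count between the lower and upper quartile of the members (824 to 1662 counts), 22.7% of 2546 rose and 19.8% fell, and of the 39 members in that range 20 rose and none fell (0 by edgeR, also 0 at an unadjusted p under 0.05, by DESeq2 and by limma-voom).

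**Figure D1:**
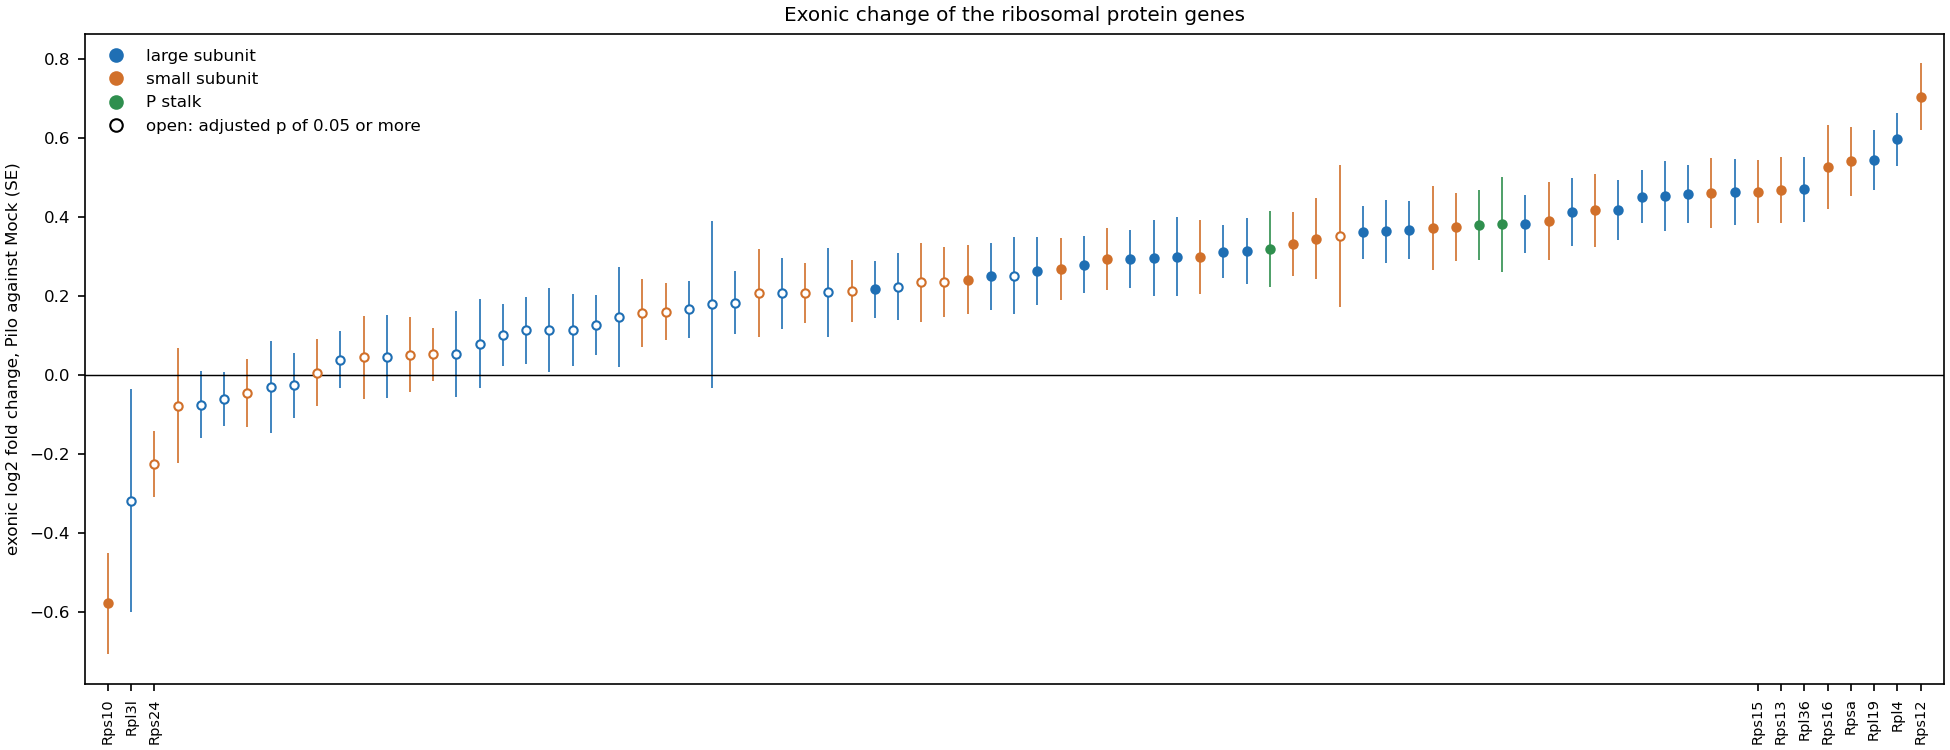
Exonic log2 fold change, Pilo against Mock, of each of the 79 members, ordered by size, with the 3 lowest and the 8 highest named on the axis; bars are standard errors, colours give the subunit, and filled points have an adjusted p under 0.05. Most points lie above 0, 41 of them filled, and Rps10 at the left end is the only filled point below 0.

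Rps12, a small subunit protein (ENSMUSG00000061983, 10:23785183-23787275, minus strand, mm10), had the largest exonic rise. It stood at 18.7, 17.2, 19.9 and 18.2 CPM (scaled by TMM) in Mock libraries 1 to 4 and at 31.2, 30.4, 31.7 and 27.2 CPM in the Pilo libraries. The groups did not overlap, and the change, given as log2 here and for every gene that follows, was 0.70 (SE 0.085, adjusted p = 5.6e-05), or 1.63-fold. In GENCODE 68.2% of the exon bases of Rps12 lie outside its protein-coding transcripts, as do 48.6% in Rps13 and 65.9% in Rpl10a. The annotation used for the counts is not given, so exonic counts may hold RNA other than spliced coding mRNA. Rpl4, a large subunit protein that lines the exit tunnel of the growing peptide (ENSMUSG00000032399, 9:64173375-64178666, plus strand), is among the 3 members with the highest mean counts. Its levels were 96.8, 91, 94.6 and 90.2 CPM in Mock and 146, 138, 145 and 135 in Pilo, a change of 0.60 (SE 0.067, adjusted p = 3.4e-05). Here too every Pilo library lay above every Mock library.

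Rpl19, of the large subunit, stood at 20.3, 21.9, 20.1 and 21.1 CPM in Mock and 29.3, 31.9, 31.1 and 29.2 in Pilo, a rise of 0.54 (SE 0.077, adjusted p = 0.00018). Rpsa, the small subunit protein also known as the laminin receptor, had 48.6, 44.5, 47.8 and 49 CPM in Mock and 70.2, 63, 80.4 and 62.8 in Pilo, with a rise of 0.54 (SE 0.087, adjusted p = 0.00044). For both genes the groups were apart, and the spread within Pilo was wider for Rpsa, where libraries 1 and 3 were the highest. Rps16, of the small subunit, went from 18.4, 17.3, 20.1 and 16.3 CPM in Mock to 27.7, 23.8, 29.8 and 22.7 in Pilo, and its rise was 0.53 (SE 0.11, adjusted p = 0.002). Rpl36, a small basic protein of the large subunit, rose by 0.47 (SE 0.082, adjusted p = 0.00077). Rps13 and Rps15, both of the small subunit, rose by 0.47 (SE 0.084, adjusted p = 0.00097) and by 0.46 (SE 0.08, adjusted p = 0.00071). In all 3 genes every Pilo library lay above every Mock library, and the Mock means of 26.3 ± 2.12, 30.0 ± 2.93 and 43.8 ± 1.22 CPM stood against Pilo means of 36.4 ± 1.68, 41.5 ± 1.85 and 60.4 ± 5.91 (SD, n = 4).

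The P stalk is the flexible arm of the large subunit that recruits the GTPases of translation, built from Rplp0 at its base and pairs of Rplp1 and Rplp2. All 3 genes rose in exons. Rplp0 had 31.1, 27.3, 29.7 and 30.9 CPM in Mock and 38.9, 32.2, 42.9 and 34.3 in Pilo, a change of 0.32 (SE 0.096, adjusted p = 0.022). Rplp2 had 26.1, 27.4, 28.7 and 27.4 CPM in Mock and 34.6, 38.1, 39.1 and 30.8 in Pilo, a change of 0.38 (SE 0.088, adjusted p = 0.005). For these genes the groups were apart. Rplp1 had 31.3, 29.1, 37.9 and 29 CPM in Mock and 39.2, 36.2, 51.6 and 39 in Pilo, and the groups overlapped, because Mock 3 lay above Pilo 2; the change was 0.38 (SE 0.12, adjusted p = 0.028). The calls of Rplp0 and Rplp1 were lost under upper-quartile scaling (changes of 0.26 and 0.32, adjusted p = 0.058 and 0.061) and in leave-one-out fits, for Rplp0 without Mock 2 (adjusted p = 0.069) and for Rplp1 without Mock 1, Mock 2, Mock 4 or Pilo 3 (adjusted p = 0.064 to 0.079).

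Levels of different genes can be compared per length of exon. By RPKM, the count scaled to library size and exon length, Rps15 at 82.6, Rpl36 at 81.9 and Rplp1 at 73.5 were the most abundant members over all libraries when the length was that of all annotated exons of a gene, and Rpl3l at 0.36, the form of Rpl3 known from muscle, was the least. The order at the top depended on that length: over the exons of protein-coding transcripts alone, an alternative chosen after seeing the data, Rpl10a (142 RPKM), Rps18 (103) and Rpl41 (95.9) stood highest, against 48.4, 23.5 and 58.9 over all their exons. By mean count, which grows with length, Rpl3 (4238), Rpl10a (3759) and Rpl4 (3743) led. Rpl3, which forms part of the peptidyl transferase region, stood at 125, 125, 114 and 128 CPM in Mock and 152, 144, 135 and 139.5 in Pilo. Its groups were apart by a small distance, and its rise of 0.22 (SE 0.072, adjusted p = 0.034) was lost under upper-quartile scaling, without a filter on low counts and without each of Mock 2, Mock 3, Pilo 1, Pilo 2 and Pilo 4 in turn (adjusted p = 0.061 to 0.096 in these fits).

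Of the members fixed by name for description, Rps6, the classical target of the S6 kinases downstream of mTORC1, rose. It stood at 26.2, 25.4, 26.4 and 27.5 CPM in Mock and 33.6, 28.8, 37.7 and 29.6 in Pilo, a change of 0.30 (SE 0.093, adjusted p = 0.026); the call was lost under upper-quartile scaling and without Mock 2 or Pilo 3 (adjusted p = 0.067, 0.066 and 0.051). Rpl5 and Rpl11, which together with 5S ribosomal RNA can bind and inhibit Mdm2, both rose. Rpl11 had 35, 35, 34.2 and 34.6 CPM in Mock and 41.2, 42.4, 46.4 and 40.2 in Pilo, a change of 0.29 (SE 0.072, adjusted p = 0.0072) with the groups well apart. Rpl5 had 74.2, 69.6, 71.3 and 71.4 CPM in Mock and 101, 81.6, 79 and 78.7 in Pilo. All 4 Pilo libraries of Rpl5 lay above Mock, with Pilo 1 far above the rest, and the change was 0.25 (SE 0.086, adjusted p = 0.04); it was 0.16 (adjusted p = 0.089) without Pilo 1, and the call was also lost without each of Mock 2, Mock 3 and Mock 4 in turn, under upper-quartile scaling, with exonic and intronic counts summed and in the exonic counts of the table with both regions (adjusted p = 0.052 to 0.099).

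Other members fixed by name did not pass the test. Rps14, whose loss underlies a human anaemia, had 59.3, 49, 57.5 and 48.6 CPM in Mock and 62.1, 60.0, 71.2 and 59.3 in Pilo, a difference of 0.24 (SE 0.09, adjusted p = 0.061); the groups only just failed to overlap, and with the replicate block the adjusted p was 0.0028. Rps27a, made as a fusion with ubiquitin, differed by 0.21 (SE 0.077, adjusted p = 0.054), and its adjusted p with the block was 0.0083. Rpl22, an RNA-binding member of the large subunit, had 52.7, 61.2, 55 and 53.1 CPM in Mock and 56.5, 60.1, 51.8 and 49.5 in Pilo. Its groups overlapped throughout, with a difference of -0.03 (SE 0.082, adjusted p = 0.844). Rpl10a, the protein tagged in ribosome affinity methods, had 115, 118, 104 and 117 CPM in Mock and 129.7, 128, 108 and 121 in Pilo, again overlapping, with a difference of 0.10 (SE 0.079, adjusted p = 0.364).

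The 3 variant copies among the members, Rpl3l, Rps27l and Rps4l, gave low levels and no call in exons. Rpl3l differed by -0.32 (SE 0.28, adjusted p = 0.426) at 0.424 to 0.801 CPM. Rps27l, a p53-responsive copy of Rps27, had 4.08, 3.78, 3.65 and 4.09 CPM in Mock and 3.4, 3.3, 4.3 and 3.78 in Pilo, a difference of -0.08 (SE 0.15, adjusted p = 0.73). Rps4l had 4.05, 3.04, 2.69 and 3.76 CPM in Mock and 4.6, 3.26, 4.59 and 4.77 in Pilo, a difference of 0.35 (SE 0.18, adjusted p = 0.157). In each of the 3 genes the groups overlapped.

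Rps10 was the only member called lower in exons. This small subunit protein (ENSMUSG00000052146, 17:27630418-27636669, minus strand) had 10.1, 12, 10.5 and 12.3 CPM in Mock and 8.48, 7.7, 5.96 and 7.92 CPM in Pilo. Every Pilo library lay below every Mock library, and the change was -0.58 (SE 0.13, adjusted p = 0.0039). The value depended on the table: in the table with both regions the gene had a mean of 1098 exonic counts against 300 in the exonic table, and its exonic change there was -0.10 (SE 0.074, adjusted p = 0.328). When exonic and intronic counts were summed, the difference was 0.05 (adjusted p = 0.595). In the annotation, 20.6% of its exon bases are shared with another gene on the same strand. Counts of the 2 tables differed by more than 1.5-fold for 6 of 76 members (Rpl19, Rpl24, Rpl26, Rpl30, Rps10 and Rps27) and by at most 5% for 59. In the table with both regions Rpl26 had no exonic counts at all and Rps27 a mean of 51.4 against 1047, while Rpl24 had 1204 against 61.1. Rps24, a small subunit gene with an alternatively spliced end, had 97, 91.1, 97.1 and 90.8 CPM in Mock and 93.4, 73.5, 74.2 and 80.9 in Pilo, which overlapped, and a difference of -0.22 (SE 0.084, adjusted p = 0.057); it was chosen for description after its values were seen. In the table with both regions its fall of -0.25 passed the test (adjusted p = 0.035), as the only fall among 75 members tested there, and 35 rose (over all genes 16.5% rose and 17.5% fell, 34% in all).

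**Figure D2:**
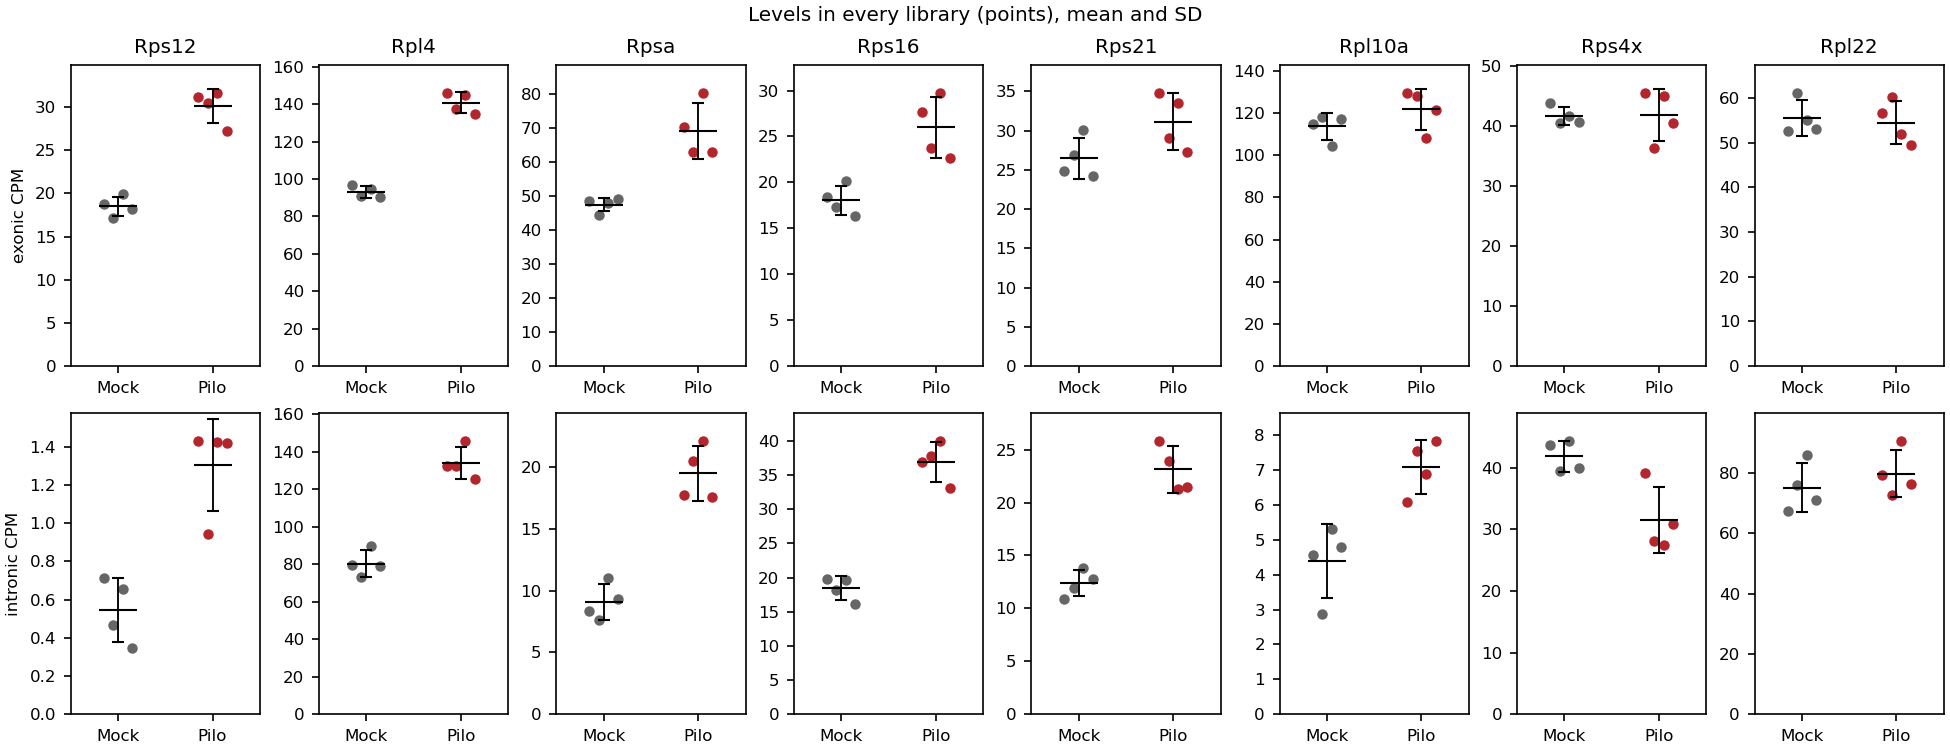
Level of 8 members in every library: TMM-scaled CPM of exonic counts (upper row, exonic table) and of intronic counts (lower row, table with both regions), with points for libraries, a bar for the mean and whiskers for the SD (n = 4 per group). Rps12, Rpl4, Rpsa and Rps16 were apart between groups in both rows, Rps21 and Rpl10a only in introns, Rps4x fell only in introns, and Rpl22 overlapped in both; each axis starts at 0 and has its own scale, since exonic and intronic CPM have separate library totals.

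Intronic counts come from RNA not yet spliced, or from introns kept in polyadenylated RNA. Of the 76 members in the table with both regions, 73 had enough intronic counts to be tested, 42 of them rose and 2 fell, beside 19.6% and 21.9% of all 13318 genes tested (41.4% in either direction). Not tested were Rps27, with a mean of 4.6 intronic counts, and Rpl13 and Rpl13a, with 0. Rpl13 and Rpl13a had mean exonic counts of 2081 and 382 in that table, and how introns were assigned is not given in the sources used here. The median intronic change was 0.46, or 1.38-fold, against 0.00 for all genes, and 67 of 73 lay above 0. Among genes with a mean intronic count between the quartiles of the members (141 to 490.0), 16.6% of 3136 rose and 31.1% fell, and of the 37 members in that range 24 rose and 1 fell. All Pilo libraries lay above all Mock libraries for 41 members in introns (17.8% of all genes), and below them for 2 (19.2%); in the exonic table they lay above for 41 of 79 (15.7% of all genes) and below for 1 (16.2%). The intronic rise was 0.49 at the median in the large subunit, with 25 of 41 higher, and 0.29 in the small subunit, with 15 of 29 higher; the difference between subunits was not tested.

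Rps16 gave the smallest p in introns. Its intronic level was 19.8, 18.2, 19.7 and 16.1 CPM in Mock and 36.9, 37.8, 40.0 and 33 CPM in Pilo, a change of 1.00 (SE 0.12, adjusted p = 1.6e-05). The lowest Pilo library lay well above the highest Mock library. Rpl17, of the large subunit, rose by 0.79 (SE 0.10, adjusted p = 3.4e-05), Rpl4 by 0.74 (SE 0.097, adjusted p = 3.7e-05), and Rpl7a, also of the large subunit, by 0.90 (SE 0.12, adjusted p = 4.7e-05). Rpl7a stood at 23.1, 21.1, 27.7 and 22.3 intronic CPM in Mock and 47, 39.7, 47.5 and 41.7 in Pilo, so that all Pilo libraries were higher. Rps12, which led in exons, had the largest intronic change of all members, 1.26 (SE 0.36, adjusted p = 0.01), on few counts: its level was 0.714, 0.467, 0.654 and 0.348 CPM in Mock and 1.43, 0.942, 1.42 and 1.42 in Pilo. The groups were apart, with Pilo 2 the lowest of its group.

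Calls in exons and introns were then set side by side. Of the 73 members tested in both, 31 (42.5%) were higher in both and 22 (30.1%) were called in neither, against 12.6% and 48.2% of 12861 genes tested in both. Another 11 (15.1%, against 6.90% of all genes) were higher in introns only by call: Rpl10a, Rpl15, Rpl23, Rpl23a, Rpl24, Rpl27, Rpl31, Rpl35a, Rpl37, Rps19 and Rps21. Of these, Rpl23, Rpl23a, Rpl27, Rpl35a, Rpl37, Rps19 and Rps21 were called higher in exons too with the replicate block (adjusted p = 0.0058 to 0.046). Called higher in exons alone were 6 members (8.22%, against 5.97% of all genes), among them Rpl5, Rpl11, Rpl34, Rpl37a and Rplp0. With the block the introns of Rplp0 passed as well (0.32, adjusted p = 0.03), as did those of Rps14 (0.19, adjusted p = 0.028). These calls are side by side and are not a test of a difference between regions.

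That difference was tested as the interaction of region and treatment, in the table that holds both. The exonic change lay below the intronic change for 25 of 72 members and above it for 2, against 12.8% and 13.5% of all 13047 genes tested (26.2% in either direction). The median of the exonic minus the intronic change was -0.22 (log2), against 0.01 for all genes. It was above 0 in 13 of the 72 members. With the replicate block 33 members were below and 3 above. Without Mock 2 or without Pilo 4, 16 were below. The shares over all genes in these fits are not given here. Where many annotated exon bases lie outside protein-coding transcripts, as in Rps12 and Rpl10a, the 2 regions may not separate spliced from unspliced RNA. The part of this in the difference was not tested. Each region was scaled to its own total. Introns held 33.0 ± 0.80% of the counts of both regions in Mock and 30.0 ± 0.63% in Pilo (SD, n = 4; exact permutation test, two-sided, p = 0.0286, the smallest that 70 splits allow), so the intronic changes are relative to a smaller share of intronic RNA. Its part in the result was not tested.

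Rps21, a small protein of the small subunit, had the smallest p of this comparison. Its introns went from 10.9, 12, 13.8 and 12.8 CPM in Mock to 25.9, 24, 21.3 and 21.4 CPM in Pilo, a rise of 0.90 (SE 0.13, adjusted p = 8.7e-05) with the groups far apart. Its exons had 24.8, 26.8, 30.0 and 24.2 CPM in Mock and 34.8, 29.1, 33.5 and 27.2 in Pilo, which overlapped (adjusted p = 0.014 with the block in the exonic table); the exonic change of the same table was 0.21 (SE 0.10, adjusted p = 0.136), and the exonic minus the intronic change was -0.70 (SE 0.10, adjusted p = 0.00038). Rpl7a followed, with an exonic change of 0.37, an intronic change of 0.90 and a difference of -0.54 (SE 0.09, adjusted p = 0.00093). Rpl3 differed by -0.48 (SE 0.086, adjusted p = 0.0015), from an intronic rise of 0.69 beside an exonic rise of 0.22. Rps3, of the small subunit and also known in DNA repair, differed by -0.76 (SE 0.16, adjusted p = 0.0043). Its introns carried few counts, with 2.79, 2.04, 1.74 and 1.88 CPM in Mock and 4.51, 5.31, 4.59 and 3.67 in Pilo, and the groups were apart. Rps16 differed by -0.51 (SE 0.11, adjusted p = 0.0044) and Rpl31, of the large subunit, by -0.49 (SE 0.11, adjusted p = 0.0057). In Rpl31 the introns rose by 0.58 (SE 0.13, adjusted p = 0.0019) while the exons differed by 0.09 (SE 0.089, adjusted p = 0.488). Rpl10a had the same pattern, with an intronic rise of 0.70 (SE 0.21, adjusted p = 0.014) at only 4.57, 2.86, 5.3 and 4.8 CPM in Mock and 6.09, 7.53, 6.88 and 7.84 in Pilo, and a difference between regions of -0.63 (SE 0.16, adjusted p = 0.011).

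Of the leaders in exons, Rpsa, Rpl36, Rpl19 and Rps15 also had the larger rise in introns. Rpsa introns stood at 8.36, 7.65, 11 and 9.32 CPM in Mock and 17.8, 20.5, 22.1 and 17.6 in Pilo, a rise of 1.10 (SE 0.15, adjusted p = 5.3e-05), and the regions differed by -0.58 (SE 0.14, adjusted p = 0.0088). For Rpl19, Rpl36 and Rps15 the differences were -0.34, -0.33 and -0.34 (adjusted p = 0.035, 0.02 and 0.036), and each of these calls was lost without Mock 1, Mock 2, Pilo 3 or Pilo 4 (adjusted p = 0.057 to 0.119), for Rps15 also without Pilo 1 (adjusted p = 0.057). In Rps12 and Rpl4 the differences of -0.56 and -0.19 did not pass (adjusted p = 0.154 and 0.099); with the block the value for Rpl4 was 0.0083. In the P stalk the differences were -0.03 for Rplp0, -0.18 for Rplp1 and -0.22 for Rplp2, none of them past the test, and with the block that of Rplp2 passed (adjusted p = 0.015), as did that of Rps6, at -0.22 (adjusted p = 0.048). Rps10 introns had 71.6, 74.3, 80.0 and 71.3 CPM in Mock and 94.8, 83.5, 90.3 and 82.9 in Pilo. All Pilo libraries were above Mock in these introns, the opposite of its exonic counts, with a difference of 0.24 (SE 0.094, adjusted p = 0.051) and, with the block, an adjusted p of 0.0078. Its exonic change in the same table lay below the intronic one by a difference of -0.34 (SE 0.082, adjusted p = 0.0083).

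**Figure D3:**
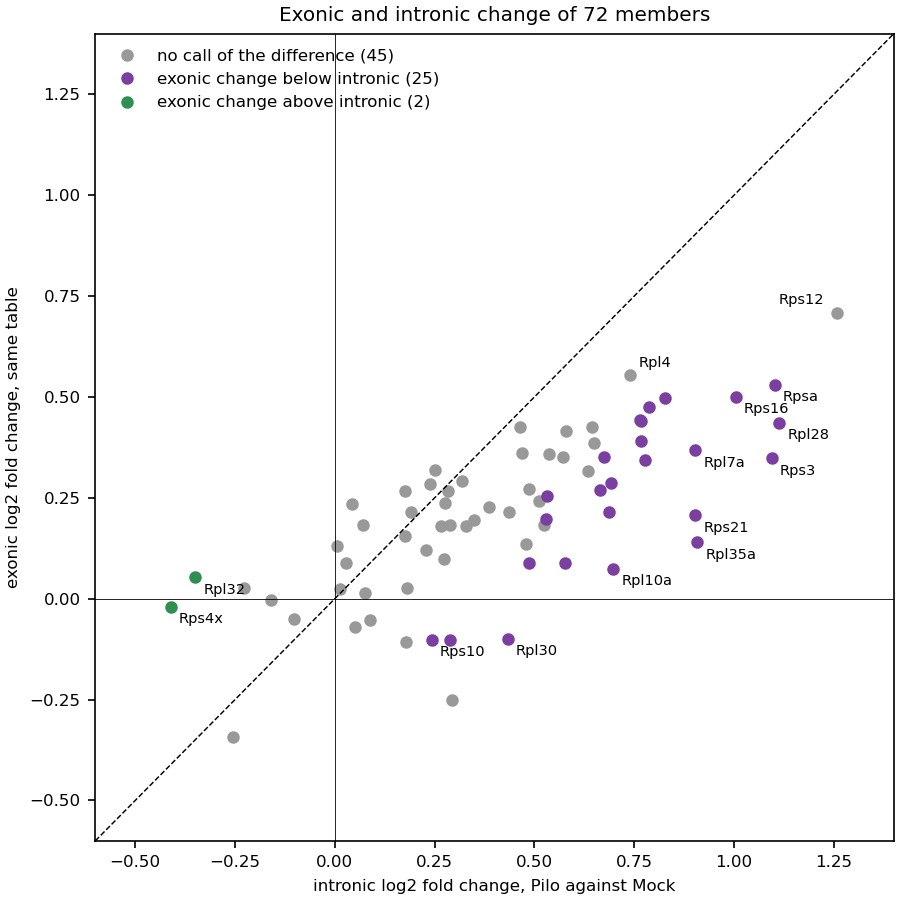
Exonic against intronic log2 fold change (Pilo against Mock) of the 72 members tested in both regions of the same table, coloured by the test of the difference; the dashed line marks equal change. Of the members called, 25 lie below the line and 2, Rps4x and Rpl32, above it.

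The 2 members above the line were Rps4x and Rpl32. Rps4x, the X-linked form of a small subunit protein, had 43.7, 39.4, 44.4 and 39.9 intronic CPM in Mock and 39.2, 28.2, 27.5 and 30.9 in Pilo. Its introns fell by 0.41 (SE 0.13, adjusted p = 0.017), with Pilo 1 close to the Mock libraries. Its exons differed by -0.02 (SE 0.084, adjusted p = 0.888) in the same table, and the difference between regions was 0.39 (SE 0.096, adjusted p = 0.0091). Rpl32, of the large subunit, had 26.4, 23.6, 29.3 and 24.1 intronic CPM in Mock and 22.5, 21.4, 19 and 18.2 in Pilo, a change of -0.35 (SE 0.13, adjusted p = 0.035). All Pilo libraries lay below Mock. Its exonic change was 0.05 (SE 0.11, adjusted p = 0.765) and the difference between regions 0.39 (SE 0.12, adjusted p = 0.031). The intronic call of Rps4x was lost without Pilo 3 (adjusted p = 0.056), and that of Rpl32 without Mock 1, Mock 3, Pilo 3 or Pilo 4 (adjusted p = 0.076 to 0.114); the call of the difference was lost for Rpl32 without Mock 1, Mock 3, Pilo 2 or Pilo 4 (adjusted p = 0.065 to 0.130). Among the next members by p in this direction, Rpl5, Rpl36a and Rpl11 had differences of 0.20, 0.25 and 0.09 and did not pass (adjusted p = 0.057 to 0.459). With the block Rpl5 did (adjusted p = 0.023). Rpl36a and Rpl6, the next members by p among intronic values below 0, differed there by -0.23 (SE 0.17, adjusted p = 0.298) and -0.10 (SE 0.10, adjusted p = 0.463).

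Some members hold snoRNA genes on the same strand between their annotated start and end. Whether each of these lies in an intron was not checked. In the annotation 29 members hold at least 1 snoRNA gene, such as Rpl4 with 5, Rpl13a with 4 and Rps12, Rpsa, Rpl5, Rpl17 and Rpl7a with 3. Of the 29 hosts 20 rose in exons, with a median of 0.36, and of the other 50 members 21 rose, with a median of 0.22; of all genes tested 15.6% rose in exons. In introns 20 of 26 hosts rose, with a median of 0.58, and 22 of 47 of the others, with a median of 0.29, against 19.6% of all genes tested. This split was chosen after the files were seen and was not tested. The libraries were made from poly(A) RNA, and counts of the snoRNAs themselves were not separated from those of their hosts. Ribosomal protein genes have many processed copies in the genome. Of the members, 12 of the 23 members without a near-identical annotated transcript of another gene rose (median 0.25), and 29 of the 56 with such a copy (median 0.26), both in exons, where the share over all genes was again 15.6%. Near-identical here means at least 95% identity over at least 50% of the length; how reads that map to several copies were counted is not given in the sources used here, so values of the 56 genes are less certain.

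**Figure D4:**
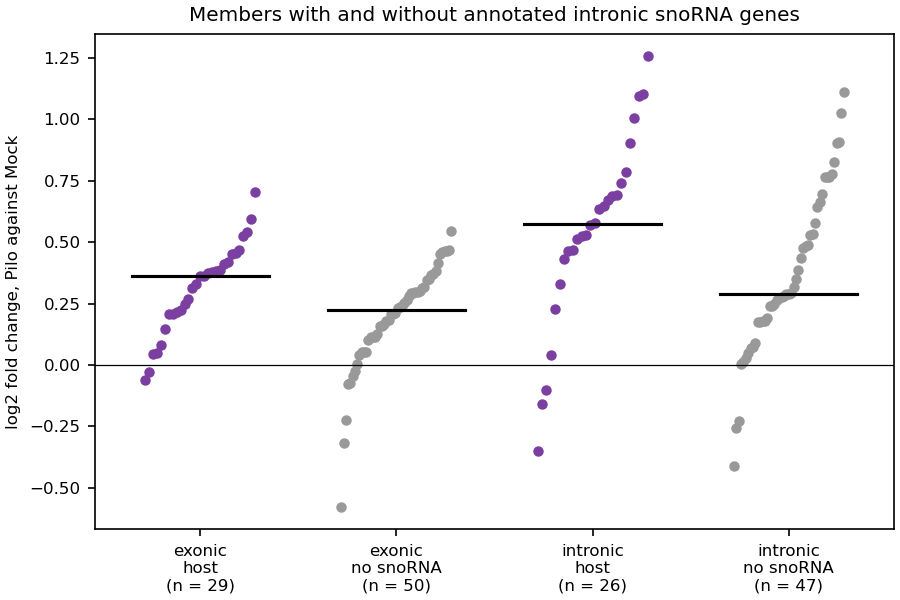
Log2 fold change (Pilo against Mock) of each member in exons (exonic table) and introns, split by whether the gene holds an annotated snoRNA; bars are medians and points are genes, spread sideways by rank. Hosts have medians of 0.36 and 0.58 and the others 0.22 and 0.29, with ranges that overlap.

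Summed over all members, the ribosomal protein genes took 0.299 ± 0.0097% of exonic counts in Mock and 0.339 ± 0.028% in Pilo (SD, n = 4). The Mock libraries lay between 0.289 and 0.312%, and Pilo 1 and Pilo 3, at 0.348 and 0.375%, stood above Pilo 2 and Pilo 4, at 0.315 and 0.318%. In introns the share was 0.177 ± 0.016% in Mock and 0.221 ± 0.0079% in Pilo, and all Pilo libraries lay close together at 0.210 to 0.229%. The uneven height of the Pilo libraries in exons held gene by gene: 65 of 79 members exceeded all Mock libraries in Pilo 1 and 68 in Pilo 3, but 51 in Pilo 2 and 45 in Pilo 4. Over all genes tested the shares that did so were nearly even, at 32.1% in Pilo 1, 33.7% in Pilo 2, 32.4% in Pilo 3 and 32.3% in Pilo 4. In introns 57 of 73 members did so in Pilo 1 and 50 in each of the other Pilo libraries, against 31.7 to 34.4% of all genes tested. The mitochondrially encoded share did not follow this order, since it was low in Pilo 1 and 2 and high in Pilo 3 and 4. Of 6 transcripts known to stay in the nucleus 0 were called by edgeR, DESeq2 or limma-voom, also at an unadjusted p under 0.05, among them Malat1 with a difference of -0.06 (adjusted p = 0.863) and Meg3 with 0.03 (adjusted p = 0.857).

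**Figure D5:**
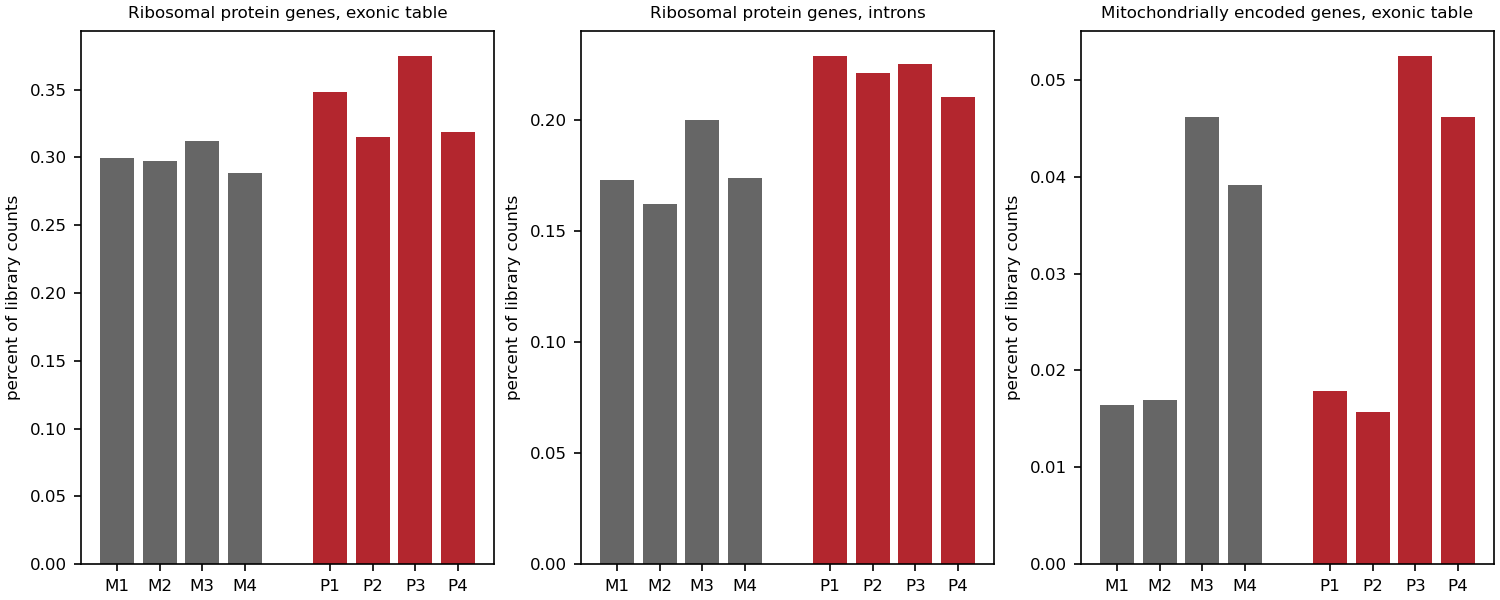
Share of library counts, in percent, taken by all members in the exonic table and in introns, and by mitochondrially encoded genes in the exonic table; M is Mock and P is Pilo, each bar is 1 library as numbered in its own table. Pilo shares of the members lie above all Mock shares in both regions, while the mitochondrial share is split by library number in both groups.

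Ribosomal proteins with symbols outside the pattern were listed apart. Of 9 genes listed, 7 were tested in exons and 2 rose, beside 15.6% of all genes tested. Rpl22l1, the paralogue of Rpl22, had 28.1, 25.6, 23.8 and 24.9 CPM in Mock and 38.8, 39.2, 41.2 and 36.9 in Pilo. It rose by 0.61 (SE 0.079, adjusted p = 9.8e-05) in exons and by 0.69 (adjusted p = 0.00023) in introns, beside the value of -0.03 for Rpl22 in exons; the paralogues were not tested against each other. Fau, a fusion of a ubiquitin-like protein with Rps30, had 25.2, 23.6, 23.0 and 24.5 CPM in Mock and 34.9, 34.2, 38.6 and 34.1 in Pilo, a rise of 0.56 (adjusted p = 0.00016). In both genes the groups were far apart. Rack1, a scaffold on the small subunit, did not pass in exons at 0.17 (adjusted p = 0.084) and rose in introns by 0.51 (adjusted p = 0.023). Rps3a1, which the pattern leaves out because its symbol ends in a digit, was added after its values were seen: it rose by 0.38 in exons and in introns (adjusted p = 0.0044 and 0.0084).

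The TOP start is shared by transcripts of other genes, translation factors among them. Of 28 such genes listed, of which some, such as Fau and Rack1, stand in the previous list too and Npm1 in the next, 13 rose and 2 fell in exons, with a median of 0.29. Over all genes tested 15.6% rose and 16.2% fell in exons, and 19.6% rose and 21.9% fell in introns. Tpt1, a translationally controlled tumour protein, rose by 0.73 (SE 0.080, adjusted p = 2.8e-05). Nap1l1, a histone chaperone, rose by 0.72, Naca, which binds nascent chains at the ribosome, by 0.65, and Eef2, the elongation factor of translocation, by 0.51 (adjusted p = 3.9e-05, 3.5e-05 and 0.00016). In introns 14 of 26 rose and 2 fell, with a median of 0.38, and Tmsb4x, an actin-binding peptide, led with 1.22 (adjusted p = 5.6e-06). Its exonic change lay below its intronic change by 0.76 (given as exonic minus intronic, -0.76, adjusted p = 0.00016).

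The machinery that builds ribosomes was listed next. Of 89 biogenesis factors 28 rose and 12 fell in exons, with a median of 0.07, and 32 of 83 rose and 12 fell in introns, with a median of 0.21. The shares of all genes tested that rose and fell were 15.6% and 16.2% in exons, and 19.6% and 21.9% in introns. Tsr1, needed for the small subunit, rose by 0.98 (SE 0.10, adjusted p = 2.1e-05), and Sbds, which helps to release Eif6 from the large subunit, by 0.69 (adjusted p = 7.1e-05). Dimt1, a methyltransferase of the small subunit RNA, fell by 1.03 (adjusted p = 6.0e-06), Bccip, a factor of large subunit assembly, fell by 0.83 (adjusted p = 1.5e-05), and Dkc1, the pseudouridine synthase of snoRNA particles, fell by 0.75 (adjusted p = 4.0e-05). Fbl, the methyltransferase guided by snoRNAs, rose by 1.65 in introns (adjusted p = 4.3e-06), and its exonic minus intronic change was -0.65 (adjusted p = 0.00021). Of 20 genes of RNA polymerase I transcription, which makes the ribosomal RNA, none rose and 7 fell in exons, with a median of -0.07 (0 higher by edgeR and limma-voom, 1 by DESeq2 and 1 at an unadjusted p under 0.05). Ttf1, the terminator of this polymerase, fell by 0.91 (adjusted p = 7.0e-06), Taf1c by 0.49, Taf1a by 0.40 and Rrn3, the initiation factor that responds to growth signals, by 0.33 (adjusted p = 0.0016, 0.0052 and 0.014). In introns 2 of the 20 rose, Polr2h and Znrd1, and 4 fell, beside 19.6% and 21.9% of all genes tested.

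Of 35 genes of mTORC1 and of TOP mRNA control, 8 rose and 4 fell in exons, with a median of 0.05. In introns 4 of 34 rose and 8 fell, with a median of 0.00. Of all genes tested 15.6% rose and 16.2% fell in exons, and 19.6% rose and 21.9% fell in introns. Rheb, the GTPase that activates mTORC1, rose by 1.08 (SE 0.10, adjusted p = 8.5e-06), and Ddit4, an inhibitor of mTORC1, rose by 0.67 (adjusted p = 0.0012). Rps6kb1, the S6 kinase that acts on Rps6, fell by 0.37 (adjusted p = 0.0015), and Larp4, a poly(A)-associated protein, rose by 0.34 (adjusted p = 0.0024). Of 24 transcription factors and other regulators listed for ribosomal protein promoters 6 rose and 7 fell in exons, with a median of -0.10. In introns 4 of 21 rose and 7 fell, with a median of -0.26. Elk4, an ETS factor, rose by 0.71 (adjusted p = 5.5e-05), while Mxd4, a partner of Max that opposes Myc, fell by 0.57 (adjusted p = 6.2e-05), Cnot3 fell by 0.59 (adjusted p = 0.00014) and Mycn by 1.24 (adjusted p = 0.00015). Of 20 genes of ribosome stress and the p53 axis 4 rose and 4 fell in exons, with a median of 0.01, and 7 of 18 rose and 2 fell in introns, with a median of 0.16. Cdkn1a, a p53 target that halts the cell cycle, rose by 1.24 (adjusted p = 1.1e-05), Eif2ak3, the kinase of endoplasmic reticulum stress, by 0.73 (adjusted p = 1.5e-05), and Atf4, the transcription factor downstream of it, by 0.63 (adjusted p = 5.3e-05), while Usp10, a deubiquitinase, fell by 0.44 (adjusted p = 0.00039).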

How the data were processed

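Poly(A) RNA of immunopurified nuclei was measured in 4 Mock and 4 Pilo samples. Per the submitters' processing notes the tools were HTSeq 0.11.2, STAR 2.7.1a, Trimmomatic 0.39, edgeR and R 4.1.1, and the build was mm10; the authors deposited raw read counts per gene, in a table of exonic counts and in a table of separate exonic and intronic counts. Not given in the sources used here are the annotation, the strand setting and the treatment of reads that map to several places. The libraries are described as directional in the labels.

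Genes were fitted on the whole of each table with edgeR 4.0.16 in R 4.3.3 (quasi-likelihood test, robust, TMM scaling, filterByExpr with a minimum count of 10, Benjamini-Hochberg adjustment, threshold 0.05). Exonic and intronic change were compared by the interaction of region and treatment, fitted with a term for each sample and scaled per region. The SE is the absolute log2 fold change, taken before edgeR's shrinkage, divided by the square root of F. CPM are TMM scaled, and RPKM use the union of exons of GENCODE vM21. Of the exonic counts 0.165% fell in genes without a matched symbol, and these stayed in the fits. Alternatives were RLE and upper-quartile scaling, DESeq2 1.42.0, limma-voom (limma 3.58.1), no filter, a minimum of 50, TMM over the other genes, the exonic counts of the table with both regions, summed regions, the replicate block, and each library left out; leave-one-out and block for the exonic counts of the table with both regions were added after seeing the data. The scripts were tested on simulated data. Samples with the same number deviated together (exonic r = 0.516, 0.644, 0.522 and 0.608, each over the limit of 0.1, from the numbers in the labels). The blocked result is therefore given where it changes a call printed for a single member. Between replicates, chi-square divided by its degrees of freedom was 10.2 to 34.2, more than counting noise gives.

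The members and the gene lists were chosen with earlier results of these data known. Members named in full were the 8 largest exonic changes past the test in each direction, the 3 highest by RPKM and by mean count, the 6 smallest p between regions and the 4 smallest p in introns in each direction, the P stalk, 8 fixed genes and the second copies; of each list, the 4 smallest p. A few of these genes are not reported here. Near copies were found with BLAST 2.17.0+ against GENCODE transcripts.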

Additional observations from a re-analysis of the deposited data

Results flagged for a closer look

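Among 138 groups of 4 libraries examined for the described members, 5 held a library that stood apart from the other 3 by more than Dixon's 95% critical value; chance alone flags about 1 in 20 such groups. For Rpl5, Pilo 1 had 101 exonic CPM, while the others had 78.7 to 81.6. For Rps3, Pilo 3 had 48.7 exonic CPM and the others 40.2 to 41.4. For Rps4l, Pilo 2 had 3.26 exonic CPM and the others 4.59 to 4.77. In introns, Pilo 2 had 0.942 CPM for Rps12 against 1.42 to 1.43 in the others, and Pilo 1 had 9.02 CPM for Rps27l against 6.94 to 7.09.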

How the results depend on the processing

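In exons the count of members that rose was 31 (upper-quartile scaling) to 53 (replicate block) against 41, and 33 to 41 with a library left out. The count that fell was 1 and became 2 with a minimum count of 50, with the replicate block, with upper-quartile scaling and without Pilo 1, and 0 with summed regions, where Rps10 (exonic table) stood at 0.052; with a library left out it was 1 to 2. In introns 36 to 45 rose and 0 to 2 fell with a library left out, and 48 rose with the block. The exonic change lay below the intronic change for 16 to 30 members and above it for 1 to 3 with a library left out, and for 33 and 3 with the block. In the exonic counts of the table with both regions 25 to 33 rose and 0 to 1 fell with a library left out, and 47 rose with the block (both chosen after seeing the data). The shares over all genes are not given for these alternatives, so their counts of members have no background beside them. The share of mitochondrially encoded counts in the exonic table differed, Pilo minus Mock, by 0.00336 percentage points and -0.00310 to 0.00915 with a library left out, turning negative without Mock 1 (-0.00105), Mock 2 (-0.000874), Pilo 3 (-0.00310) and Pilo 4 (-0.00102); the intronic share differed by -3.36 to -2.71 points. In the mitochondrial share Mock 1 and Mock 2 were the low libraries of Mock, and Pilo 3 and Pilo 4 the high ones of Pilo. Leaving out any of these lowers that difference by arithmetic. The cause of the other changes was not tested, beyond the fewer libraries in a leave-one-out fit. Among intronic counts tested the mean was lowest for Rps12 (12.3), Rpl35a (21.8), Rpl26 (23.3), Rpl3l (25.4) and Rps24 (25.8), with standard errors of 0.27 to 0.36, and errors cover the spread between libraries only.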
